A study of Mus musculus with 15 samples.

Results

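The genes of the mTOR kinase complexes and their closest regulators were examined in the brain of mice that lack the paternal Snord116 cluster, the locus deleted in Prader-Willi syndrome. The 10 genes were taken by name from the 23235 genes of the expression table. They are Mtor, Rptor, Rictor, Mlst8, Akt1s1, Deptor, Tsc1, Tsc2, Rheb and Rps6kb1, and each was followed in the expression table and in 5 lists of chromatin peaks. The choice was made by name, with earlier results of these data known, and applied no cutoff on measured values.

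RNA was sequenced from adult cortex, and the chromatin contacts of the long noncoding RNA 116HG, made from the Snord116 host gene, were mapped in adult brain. Chromatin isolation by RNA purification (ChIRP) pulls down an RNA with antisense oligos and sequences the DNA that comes with it. RNA was collected from 9 mice, labelled as 3 wild type (WT) and 2 Snord116del at Zt+6 and as 2 WT and 2 Snord116del at Zt+16, where Zt counts hours from lights on. With lights on for the first part of the cycle, Zt+6 fell in the light and Zt+16 in the dark.

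WT mice were labelled C57BL/6J, and Snord116del mice were B6(Cg)-Snord116tm1.1Uta/J, genotype +/-, with the deletion inherited from the father in every Snord116del animal. The study's methods describe them as littermates and the RNA-seq mice as males. ChIRP was done with the 116HG oligos in 2 WT samples and 1 Snord116del sample. A nonspecific control oligo set (NSC) was used in 1 WT and 1 Snord116del sample, and 1 WT input library served as background. The deletion is present in every cell of the body and at every age, so the comparison is not restricted to any cell type.

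The mTOR kinase is the catalytic core of a pair of complexes that read nutrient and growth signals. With Raptor, the product of Rptor, it forms complex 1, which drives protein synthesis through S6 kinase (Rps6kb1). With Rictor it forms complex 2, which phosphorylates Akt. Mlst8 is a core subunit of both complexes, Deptor is an inhibitor that binds both, and Akt1s1 encodes PRAS40, an inhibitor of complex 1. Tsc1 and Tsc2 form a GTPase-activating complex that holds the small GTPase Rheb, the direct activator of complex 1, in its inactive state. In cortex the pathway is known for its part in neuronal growth, synaptic protein synthesis and, through loss of Tsc1 or Tsc2, tuberous sclerosis.

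The expression table gave 1 FPKM value (fragments counted per kilobase of transcript and scaled to the mapped reads) per gene and group, already pooled over the 2 or 3 mice. No spread between mice could be computed, so no difference in expression below has an error or a test. In its place a fixed rule of size was used. A gene was counted as higher or lower when FPKM + 1 changed 1.5-fold or more and 1 FPKM was reached in the higher group, among the 10297 genes whose mean over the 4 groups was at least 1 FPKM. Of the 10 genes, 9 passed that filter, and Rictor, at a mean of 0.903 FPKM, did not. Read depth per mouse is unknown from the table. In bulk cortex, fewer cells of a type and less RNA per cell cannot be told apart.

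The groups differed in their general level, which touches every value below. The median FPKM of the 10297 genes was 3.17 (WT) and 5.63 (Snord116del) at Zt+6, and 2.90 (WT) and 4.00 (Snord116del) at Zt+16. Snord116 itself was listed at 0 in all 4 groups, so it could not check the labels. Ipw, a transcript of the same imprinted domain, was 21.6 FPKM in WT and 3.40 FPKM in Snord116del at Zt+6, and 3.17 and 1.82 FPKM at Zt+16. Snrpn, of the same domain, went the other way, at 65.3 FPKM in WT and 105.4 FPKM in Snord116del at Zt+6. At Zt+16 Snrpn was at 90.0 and 149.4 FPKM. Markers of neurons were detected in every group, with the 6 summed to between 547 and 951 FPKM.

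At Zt+6 Mtor, Rptor, Deptor, Tsc2, Rheb and Rps6kb1 were higher in Snord116del than in WT cortex by the size rule, so 6 of 9 genes were higher and 0 were lower. The 6 include the kinase, its activator and its effector as well as the inhibitors Deptor and Tsc2. The effector, Rps6kb1, passed the filter only through its Snord116del value at Zt+6, so its entry and its call rest on the same value. The rule was met upward by 49.3% of all genes tested and downward by 7.62%, so most genes past the rule moved the same way as the mTOR genes. Their median log2 fold change was 0.68, against 0.57 over all genes.

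Mtor, the kinase itself, was at 5.32 FPKM in WT and 8.95 FPKM in Snord116del at Zt+6, and at 6.16 and 8.65 FPKM at Zt+16. Both Snord116del groups lay above both WT groups. The log2 fold change of FPKM + 1 was 0.65 at Zt+6 and 0.43 at Zt+16. At Zt+6 Mtor lay at the 54.6th percentile of the changes of all genes. Within a group, its level stood between the 65.4th and the 69.0th percentile of genes in all 4 groups.

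Rptor, the scaffold that defines complex 1, was at 2.94 FPKM in WT and 7.00 FPKM in Snord116del at Zt+6. At Zt+16 it was at 2.45 and 3.56 FPKM. The Snord116del group at Zt+6 stood apart from the other 3 groups, and the log2 fold change was 1.02 there and 0.40 at Zt+16.

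Rictor, the scaffold that defines complex 2, had the lowest mean level of the set, although in Snord116del at Zt+6 Mlst8 lay lower. Rictor was at 0.590 FPKM in WT and 2.73 FPKM in Snord116del at Zt+6, and at 0.131 and 0.156 FPKM at Zt+16. Only 1 of the 4 groups exceeded 1 FPKM. The log2 fold change on the FPKM + 1 scale was 1.23 at Zt+6 and 0.03 at Zt+16, and the pseudocount of 1 compresses changes at these low levels.

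Mlst8, the subunit shared by both complexes, was nearly level between genotypes at Zt+6. It was at 2.54 FPKM in WT and 2.55 FPKM in Snord116del at Zt+6, and at 2.08 and 2.88 FPKM at Zt+16. Its log2 fold change was 0.0044 at Zt+6, the smallest of the set, at the 22.6th percentile of all genes, and 0.33 at Zt+16.

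Of the inhibitors inside the complexes, Deptor met the rule at Zt+6 and Akt1s1 did not. Deptor was at 4.32 FPKM in WT and 8.93 FPKM in Snord116del at Zt+6, or 0.90 on the log2 scale. At Zt+16 it was at 3.13 and 3.58 FPKM, a change of 0.15. Akt1s1 was at 5.91 and 7.99 FPKM at Zt+6, a change of 0.38 that did not meet the rule, and at 4.75 and 5.82 FPKM at Zt+16, a change of 0.25. Mtor and Deptor were level in Snord116del at Zt+6, with a ratio of 1.00, while the ratio of Mtor to Deptor was 1.23 in WT at that time and, at Zt+16, 1.97 in WT and 2.41 in Snord116del.

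The TSC genes encode the brake on complex 1. Tsc2 had the highest level of the set in every group, at 7.45 FPKM in WT and 12.6 FPKM in Snord116del at Zt+6 and at 8.78 and 13.8 FPKM at Zt+16. Its log2 fold change was 0.68 at Zt+6 and 0.60 at Zt+16, and it was the only member that met the rule at both times. Tsc1 was at 3.49 and 5.47 FPKM at Zt+6 and at 3.50 and 4.24 FPKM at Zt+16, with changes of 0.53 and 0.22. Tsc1 was the nearest member outside the rule at Zt+6, at 1.44-fold, and Mtor the nearest inside it, at 1.57-fold.

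Rheb, which the TSC complex restrains, had the largest change of the tested members at Zt+6 on the FPKM + 1 scale as deposited, while by plain ratio of FPKM Rps6kb1 changed more, 3.19-fold against 2.52-fold, as it did at the same median. Rheb was at 2.76 FPKM in WT and 6.96 FPKM in Snord116del, or 1.08 on the log2 scale. At Zt+16 it was at 2.19 and 3.17 FPKM, a change of 0.39. The S6 kinase gene Rps6kb1 was at 0.935 and 2.98 FPKM at Zt+6, a change of 1.04, and at 0.449 and 0.626 FPKM at Zt+16, a change of 0.17. Rps6kb1 exceeded 1 FPKM only in Snord116del at Zt+6. That value alone brought it past the filter, and its calls at Zt+6 and across time in Snord116del rest on the same value.

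**Figure D1:**
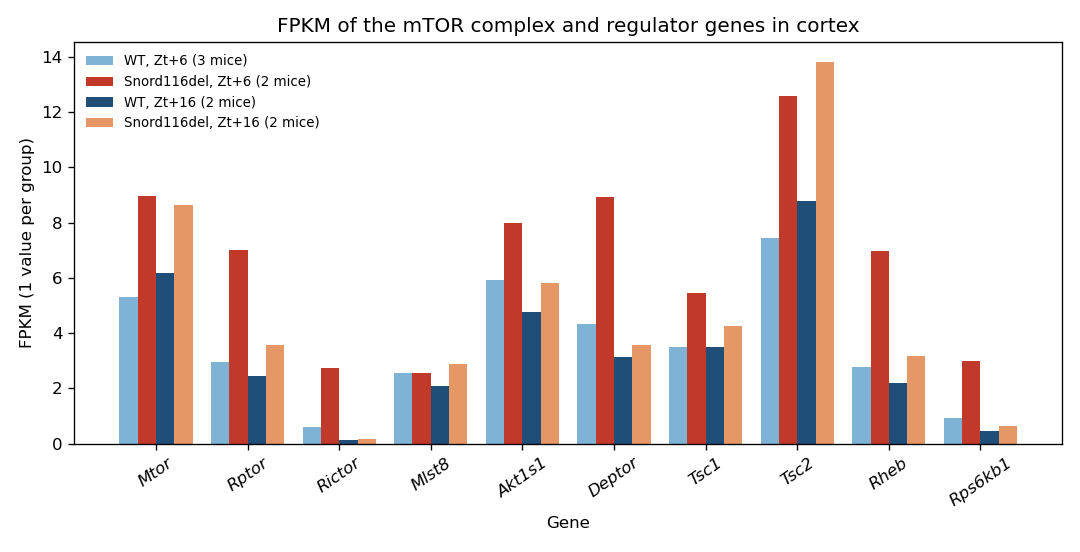
FPKM (vertical axis, linear) of the 10 genes in the 4 groups, 1 bar per group with no error bar because the table holds 1 value per group. Snord116del at Zt+6 is the highest group for 7 genes (Rptor, Rictor, Akt1s1, Deptor, Tsc1, Rheb and Rps6kb1) and for Mtor by a small margin over Snord116del at Zt+16, 8.95 against 8.65 FPKM; Tsc2 and Mlst8 are highest in Snord116del at Zt+16.

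At Zt+16 only 1 of 9 genes, Tsc2 at 1.52-fold, was higher in Snord116del and 0 were lower, where 19.0% of all genes were higher and 0.204% lower. All 9 changes were nonetheless positive, from 0.15 for Deptor to 0.60 for Tsc2, with a median of 0.33 against 0.35 over all genes. As deposited, the genotype change at Zt+6 exceeded that at Zt+16 by a median of 0.31 over the 9 genes and by 0.22 over all genes. The excess was 0.88 for Rps6kb1, 0.75 for Deptor, 0.70 for Rheb and 0.62 for Rptor, and it was 0.23 for Mtor and 0.08 for Tsc2. For Mlst8 the order was turned, with a change 0.33 smaller at Zt+6, written as a difference of -0.33. With every group brought to the same median, the difference was 0.50 for Rps6kb1, 0.40 for Deptor, 0.35 for Rheb and 0.28 for Rptor. It was then 0.01 for Tsc1, -0.09 for Mtor, -0.19 for Akt1s1, -0.25 for Tsc2 and -0.58 for Mlst8. Whether the genotype changes differ between the times could not be tested without values per mouse.

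Across time in WT cortex, 0 of 9 genes met the rule between Zt+6 and Zt+16, where 5.71% of all genes were higher and 10.3% lower at Zt+16. The changes ran from -0.42 for Rps6kb1 to 0.21 for Tsc2. With every group brought to one common median, 0 of 9 genes met the rule in WT as well, where 10.6% of all genes were higher and 9.24% lower. In Snord116del cortex 4 of 9 genes were lower at Zt+16 and 0 were higher, where 39.1% of all genes were lower and 25.0% higher. The 4 were Rps6kb1 at -1.29, Deptor at -1.12, Rheb at -0.93 and Rptor at -0.81 on the log2 scale. Mtor differed by -0.04 and Tsc2 by 0.13 between the times in Snord116del. These comparisons share groups with the genotype comparisons: the Snord116del value at Zt+6 enters both.

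How far these genes differ between genotypes depended on what the groups were set equal to. When all groups were brought to one common median over the tested genes, 0 of 9 genes met the rule at Zt+6, where 14.8% of all genes were higher and 24.2% lower. Mtor and Tsc2 then both lay at -0.07, Rps6kb1 at 0.50, Rheb at 0.40, Rptor at 0.34 and Deptor at 0.18, and the median of the 9 was -0.07 against -0.06 over all genes. At Zt+16 the same scaling also left 0 of 9 genes past the rule, with 1.20% of all genes higher and 0.515% lower. Across time in Snord116del, Deptor at -0.68 and Rps6kb1 at -0.92 stayed past it, so 2 of the 4 genes remained, where 26.3% of all genes were lower and 34.9% higher.

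The size of the change also moved with transcript length. Over the 10165 tested genes with a length in the annotation, Spearman's rho between transcript length and the Zt+6 log2 fold change was 0.63, given as a description because all genes share the same libraries. At Zt+16 rho was -0.38. The mTOR genes are long, with a median transcript of 6228 bases against 3087 over all genes, and 8 of 9 exceed that median. With a smooth trend on length removed, 0 of 9 genes were higher at Zt+6 and 2 were lower, where 12.5% of all genes were higher and 13.3% lower. The 2 were Tsc1 at -0.66 and Mlst8 at -0.62, while Mtor lay at -0.58, Tsc2 at -0.40, Deptor at -0.33 and Rptor at -0.09. Rheb at 0.31 and Rps6kb1 at 0.03 kept a positive sign without meeting the rule.

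**Figure D2:**
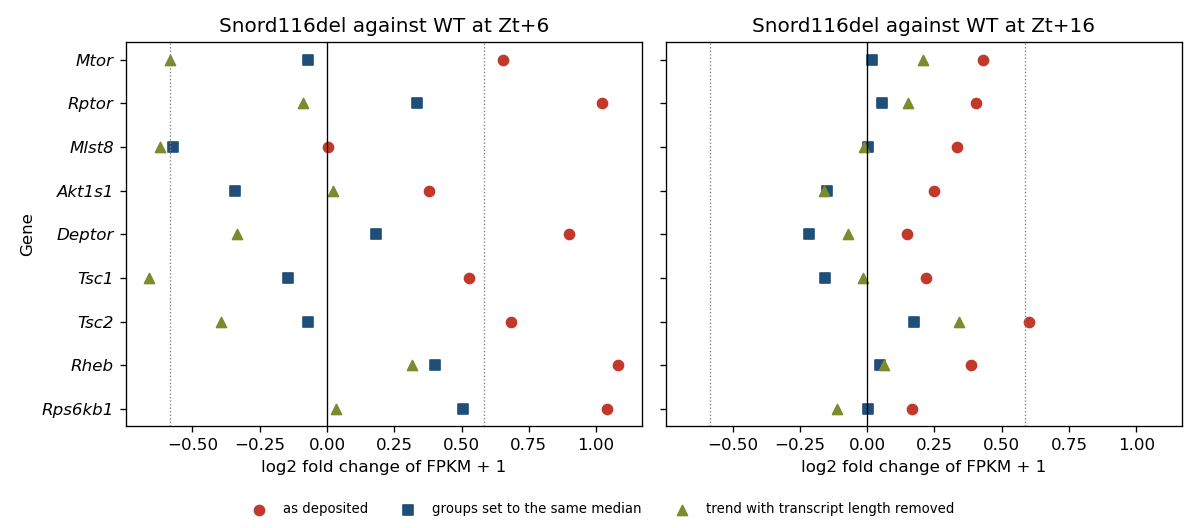
Log2 fold change of FPKM + 1 (horizontal axis), Snord116del against WT, for the 9 tested genes at Zt+6 (left) and Zt+16 (right), as deposited, with all groups set to the same median, and after removal of the transcript length trend. Dotted lines mark 1.5-fold in either direction, and the solid line marks no difference. At Zt+6 the 6 genes to the right of the dotted line as deposited are all inside it on the other scales, and Mtor moves from 0.65 to -0.07 and -0.58.

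A ratio between members is not touched by a factor common to a whole group, because both genes come from the same column. At Zt+6 the ratio of Mtor to Tsc2 was 0.714 in WT and 0.712 in Snord116del, and at Zt+16 it was 0.702 and 0.625, so kinase and brake kept nearly the same proportion in 3 of the 4 groups. The ratio of Rptor to Rictor, the scaffolds that sort mTOR into complex 1 or complex 2, was 4.98 and 2.56 at Zt+6 and 18.8 and 22.9 at Zt+16. It was lower in both Zt+6 groups than in both Zt+16 groups, with Rictor near the floor of the table at Zt+16. For Rheb to Tsc2 the ratio at Zt+6 was 0.370 in WT and 0.554 in Snord116del, and at Zt+16 it was 0.250 and 0.229. The ratio of Rps6kb1 to Mtor was 0.176 and 0.333 at Zt+6, and 0.0729 and 0.0724 at Zt+16. None of these ratios has an error, and FPKM ratios between genes also carry how completely each transcript was covered.

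The genes with a pattern over the 4 groups most like that of Mtor were Mtap6, Galntl1 and Btf3l4. Likeness was the root mean square difference of log2(FPKM + 1), each gene centred on its own mean over the 4 groups, and came to 0.0072, 0.0090 and 0.010. With 4 points per gene such likeness is common, and 580 of 10296 genes (5.63%) lay within 0.1 of Mtor. Tsc2 was the nearest of the other members at 0.079, with 329 genes as near or nearer. Rps6kb1 was the farthest at 0.49.

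The wider pathway was followed through 62 further genes, of which 51 passed the filter. Some of these, among them Wdr59, Eef2k and Grb10, exceeded 1 FPKM only in Snord116del at Zt+6 and passed through that group. Counts of higher genes at Zt+6 include them, and the shares over all genes used the same filter. At Zt+6, 28 were higher and 4 lower in Snord116del, with a median of 0.66, where 49.3% of all genes were higher and 7.62% lower. With groups at the same median 8 were higher and 12 lower, where 14.8% of all genes were higher and 24.2% lower. The same shares over all genes apply to each list at Zt+6. No list was adjusted for transcript length, with which the Zt+6 change had a Spearman's rho of 0.63 over all genes. Across time in Snord116del that rho was -0.62. The part of length in contrasts between lists or genes was not tested. At Zt+16, 8 were higher and 0 lower, where 19.0% of all genes were higher and 0.204% lower. With groups at the same median 0 were past the rule in either direction, against 1.20% higher and 0.515% lower. Across time in WT, 3 were higher and 4 lower at Zt+16, against 5.71% and 10.3% of all genes. Across time in Snord116del, 11 were higher and 23 lower, against 25.0% and 39.1%. With groups at the same median 17 were higher and 19 lower, against 34.9% and 26.3%.

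The Rag GTPases and the Ragulator, which carry complex 1 to the lysosome when amino acids are plentiful, had 2 higher and 2 lower of 9 genes tested at Zt+6, with a median of -0.14. With groups at the same median 1 was higher and 5 lower. Rragd, a Rag GTPase, was at 2.27 FPKM in WT and 8.59 FPKM in Snord116del, a change of 1.55. Lamtor5, a Ragulator subunit listed under its older symbol Hbxip, was at 46.0 and 20.9 FPKM, a change of -1.10, and at 71.7 and 105.6 FPKM at Zt+16, a change of 0.55. Across time in Snord116del 7 of the 9 were higher and 2 lower at Zt+16, where 25.0% of all genes were higher and 39.1% lower.

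The GATOR complexes and nutrient sensors, which pass amino acid supply to the Rags, had 7 higher and 1 lower of 13 at Zt+6, and 3 higher and 2 lower with groups at the same median. Fnip1, a partner of folliculin, was at 1.04 and 5.33 FPKM, a change of 1.63. At Zt+16 it was at 0.47 and 0.71 FPKM, so it passed the filter only through Snord116del at Zt+6. Sec13, a GATOR subunit that also serves vesicle coats and nuclear pores, was at 10.7 and 6.42 FPKM, a change of -0.66. The upstream kinases and brakes had 9 higher and 1 lower of 12 as deposited, and 3 higher and 2 lower at the same median. Pik3ca, a catalytic subunit of PI3 kinase, was at 1.38 and 5.85 FPKM, a change of 1.53. Ddit4, a stress-induced inhibitor of complex 1, was at 11.8 and 4.74 FPKM at Zt+6, a change of -1.16, and at 14.1 and 19.8 FPKM at Zt+16, a change of 0.47.

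The genes downstream of mTOR had 9 higher and 0 lower of 12 at Zt+6, which became 1 higher and 2 lower with groups at the same median. Ulk2, an autophagy kinase, was at 3.63 and 12.6 FPKM, a change of 1.55. Eif4ebp1, the translation repressor that complex 1 phosphorylates, was at 2.25 and 1.89 FPKM, a change of -0.17 that did not meet the rule, and at 1.70 and 3.17 FPKM at Zt+16, a change of 0.62 that did. The remaining subunits and assembly factors had 1 higher and 0 lower of 5 at Zt+6, and 0 higher and 1 lower at the same median. Tti1, an assembly factor for kinases of this family, was at 1.12 and 2.22 FPKM, a change of 0.60. Tbc1d7, the third subunit of the TSC complex, was at 4.48 and 4.30 FPKM at Zt+6, a change of -0.05, and at 5.19 and 8.80 FPKM at Zt+16, a change of 0.66.

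Markers of other cell types moved in the same comparison. At Zt+6 the sum of 4 astrocyte markers was 30.0 FPKM in WT and 90.1 FPKM in Snord116del, that of 3 endothelial markers was 3.53 and 12.0 FPKM, that of 4 microglial markers 17.6 and 38.2 FPKM, that of 4 oligodendrocyte markers 381 and 635 FPKM and that of 6 neuronal markers 678 and 951 FPKM. At Zt+16 the same sums were 13.5 and 17.3 FPKM for astrocytes, 1.30 and 1.69 FPKM for endothelium, 16.0 and 25.0 FPKM for microglia, 641 and 910 FPKM for oligodendrocytes and 547 and 752 FPKM for neurons. By the size rule at Zt+6, 4 of 4 astrocyte, 3 of 3 endothelial, 3 of 4 microglial, 3 of 4 oligodendrocyte and 4 of 6 neuronal markers were higher in Snord116del, where 49.3% of all genes were. With groups at the same median the counts were 2, 1, 1, 1 and 2, where 14.8% of all genes were higher. The endothelial markers Pecam1 and Flt1 exceeded 1 FPKM only in Snord116del at Zt+6 and passed the filter through that group. Of 4 markers of striatum, which borders the cortex, 3 were tested and all 3 were higher as deposited and 2 at the same median, with sums of 13.5 and 28.5 FPKM for the 4. The choroid plexus sum was 202 and 183 FPKM at Zt+6 and 25.3 and 30.0 FPKM at Zt+16. No marker was at 0 in any group, and the part of cell makeup in the changes of the mTOR genes was not tested.

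Chromatin peaks were compared with the genes on the mouse build mm9. A peak was put at a gene when it lay inside it or within 2 kb. Each ChIRP list came from 1 library against the 1 input. The study's methods give a false discovery rate below 5% and more than 20-fold above input as the peak filter. For WT 116HG replicate 2, whose list holds positions only, the fold could not be checked. All 10 genes had a peak in WT 116HG replicate 1, which lists 78033 peaks. This was also true of 59.3% of the 21853 genes with an annotation and of 93.6% of the 10165 that passed the expression filter, so a peak from this list did not set the mTOR genes apart from other expressed genes. In WT 116HG replicate 2, with 11145 peaks, 4 of 10 genes had one (Mtor, Rictor, Deptor and Rheb), against 13.9% of annotated genes and 17.5% of those that passed the filter. No such share, here or below, was matched on gene length, and the part of length in these counts was not tested.

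A replicate 1 peak was called replicated when a replicate 2 peak lay within 10 kb. This held for 2 of 10 genes, Mtor and Rheb, against 10.9% and 18.0% of the same sets of genes. In the 3 control lists together, 1 of 10 genes had a peak, against 10.8% and 13.8%. That gene was Rptor, with 1 peak in the WT NSC list and 1 in the Snord116del NSC list. The Snord116del 116HG list, made with the 116HG oligos from brain that lacks the RNA's paternal source, had 0 of its 1280 peaks at the 10 genes, where 2.26% of annotated genes and 2.86% of those that passed the filter had one.

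The replicate 1 peaks at the mTOR genes lay in exons. Of 69 peaks, 38 had their middle in a coding exon, 17 in a 3′ UTR, 4 in a 5′ UTR and 2 in an exon of another transcript of the gene. Only 1 lay in an intron, of Rictor. The other 7 lay in the flanks, 1 upstream of Tsc1 and 6 downstream, of which 4 were at Mlst8. Of the 62 peaks inside the genes, 61 were in exons (98.4%, exact 95% binomial interval 91.3 to 99.96%, covering counting error only), where exons make up 9.73% of the 829043 bases of these genes. Among all replicate 1 peaks inside genes the share was 84.4%. A peak at these genes was exonic over a median of 98.9% of its length.

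By member, replicate 1 had 16 peaks at Tsc2, 15 at Mtor, 10 at Rptor, 6 at Mlst8, 5 at Rictor, 4 each at Deptor, Tsc1 and Rps6kb1, 3 at Rheb and 2 at Akt1s1. A 3′ UTR peak was present at 9 of the 10, all but Akt1s1, and a coding exon peak at 9, all but Mlst8. The 3′ UTR held the highest fold over input for 5 members. No share over all genes was computed for these counts, so they cannot be set against other genes. Over the 4 peaks in a 5′ UTR, the fold over input had a median of 68.85 (range 51.3 to 133.4). Folds over input had a median of 61.6 (range 26.7 to 153.9) over the 17 3′ UTR peaks and of 41.0 (range 22.1 to 102.6) over the 38 coding exon peaks. Of the 242 exons of the members' main transcripts, 49 held a peak (20.2%), and these had a median length of 187 bases against 111 bases for exons without one. Peaks inside the gene per kilobase of transcript ranged from 0.390 in Tsc1 to 2.41 in Tsc2, with 1.63 in Mtor, where the genes that passed the filter had a median of 1.38. Over the 10 members Spearman's rho between peaks per kilobase and WT FPKM at Zt+6 was 0.50, and over the 10165 filtered genes it was 0.61. Both are descriptions, since the genes share 1 ChIRP library and 1 expression column.

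**Figure D3:**
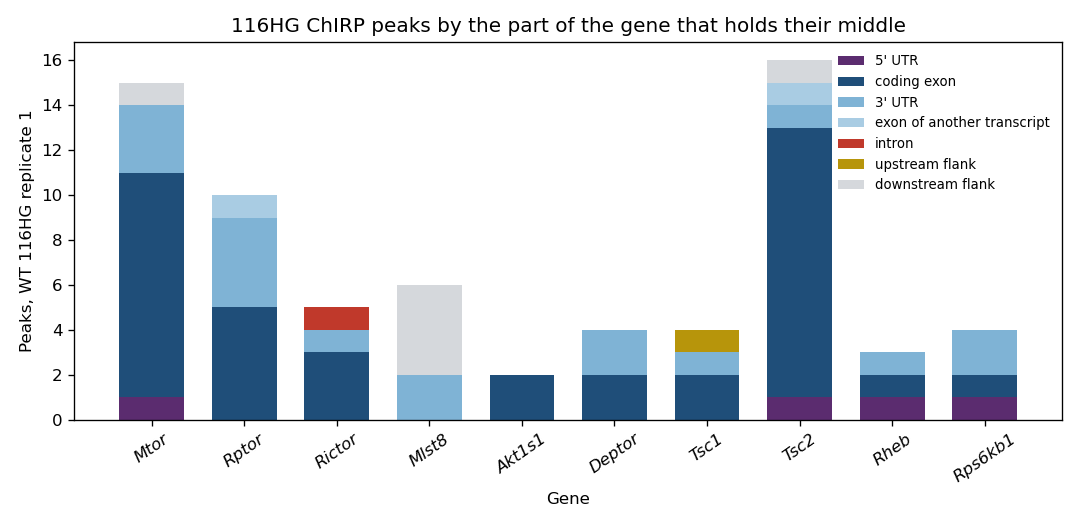
Number of WT 116HG replicate 1 peaks (vertical axis) at each of the 10 genes, stacked by the part of the gene that holds the middle of the peak. Of the 69 peaks, 38 are in coding exons and 17 in 3′ UTRs, and the single intron peak is at Rictor.

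Mtor spans chr4:147822720-147931792 (mm9, plus strand) in 58 exons. Its 15 replicate 1 peaks began at the first exon, a 5′ UTR exon, with a peak 133-fold over input, ran through 10 coding exons with folds from 22.1 to 92.3, and ended with 3 peaks in the last exon's 3′ UTR, the highest at 112-fold. The last of the 15 lay just past the gene inside an exon of Exosc10, the neighbouring gene. The replicate 2 peak lay in the intron after exon 19, and no replicate 1 peak overlapped it. The 2 replicate 1 peaks within 10 kb of it, in exons 11 and 19, were 51.3-fold and 30.8-fold over input. Their sequences on the gene's strand show how closely the replicate 1 peaks kept to the exons, with exon bases in capitals and all other bases in lower case.
Mtor replicate 1, exon 11, chr4:147838448-147838652: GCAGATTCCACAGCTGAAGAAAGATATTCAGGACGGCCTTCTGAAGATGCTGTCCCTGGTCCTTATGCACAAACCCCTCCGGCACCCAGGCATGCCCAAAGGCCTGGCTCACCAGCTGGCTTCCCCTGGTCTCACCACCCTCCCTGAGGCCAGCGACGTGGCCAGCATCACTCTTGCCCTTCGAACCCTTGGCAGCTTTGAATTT
Mtor replicate 1, exon 19, chr4:147846015-147846166: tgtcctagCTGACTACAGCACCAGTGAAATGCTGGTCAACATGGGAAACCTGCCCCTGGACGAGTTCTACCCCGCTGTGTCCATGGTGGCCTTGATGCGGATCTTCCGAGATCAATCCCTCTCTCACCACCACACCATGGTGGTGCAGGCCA

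The first of these is exonic over all 205 of its bases. The second starts 8 bases inside the intron, at the splice acceptor, and is exonic over the other 144.

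Replicate 2 differed from replicate 1 in the kind of sequence it listed at these genes. Of its 5 peaks, 4 lay in introns and 1 in an exon, the 3′ UTR of Rheb. Over the whole list 6.30% of the peaks inside genes were in exons. The GC content of the 5 peaks had a median of 27.5%, against 53.5% for the 69 replicate 1 peaks. The middle 32 bases occurred once in the mm9 genome for 68 of the 69 replicate 1 peaks and for 3 of the 5 replicate 2 peaks, those at Mtor, Rictor and Rheb. The intron peaks of replicate 2 at Rictor and Deptor are printed on the gene's strand to show their T-rich sequence, beside the intron peak of the WT NSC control at Rptor. All their bases are intronic and in lower case.
Rictor replicate 2, chr15:6662146-6662226: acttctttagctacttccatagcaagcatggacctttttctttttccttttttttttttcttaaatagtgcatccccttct
Deptor replicate 2, chr15:55042665-55042724: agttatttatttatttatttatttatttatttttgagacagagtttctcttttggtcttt
Deptor replicate 2, chr15:55050656-55050764: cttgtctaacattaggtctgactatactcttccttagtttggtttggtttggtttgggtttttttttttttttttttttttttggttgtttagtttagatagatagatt
Rptor WT NSC, chr11:119573768-119573914: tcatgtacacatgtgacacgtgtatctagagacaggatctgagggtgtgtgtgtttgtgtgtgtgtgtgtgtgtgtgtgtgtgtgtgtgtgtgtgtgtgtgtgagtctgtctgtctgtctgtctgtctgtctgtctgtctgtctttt

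The intron peak of replicate 2 at Mtor was unlike these, with a GC content of 52.1% and 32.4% T. The Rictor peak, with an unbroken run of 12 T, was 49.4% T on the gene's strand. The Deptor peaks were 61.7% and 58.7% T, the first with a longest run of 5 T and the second with one of 25 T, and their middles occurred 11 and 6 times in the genome. The Rptor control peak, 44-fold over input, is a tract of GT and GTCT repeats. The Snord116del NSC peak at Rptor, at chr11:119677776-119678611, was 21.0-fold over input over 836 bases.

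Rheb, at chr5:24308641-24348442 on the minus strand, was the only member at which peaks of both WT 116HG replicates overlapped. The replicate 1 peak at chr5:24309063-24309439 lay in the 3′ UTR at 154-fold over input, the joint highest fold of the set with a Tsc2 peak. It contains the whole of the replicate 2 peak at chr5:24309083-24309210, which had a GC content of 23.4% and a middle that occurred once in the genome. A second replicate 1 peak, 56.0-fold, had its middle in the coding part of the same exon, 234 bases from the replicate 2 peak, and the third, 71.8-fold, lay in the 5′ UTR. No control list had a peak at Rheb.

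Tsc2, at chr17:24732882-24769574 on the minus strand, had 12 coding exon peaks, from 30.8-fold to 102.6-fold over input. Its 3′ UTR peak, 687 bases long and 154-fold over input, also overlaps an exon of Pkd1, the polycystin gene on the opposite strand, and the peak past its end, 92.3-fold, lies in Pkd1. DNA peaks carry no strand, so the genes cannot be told apart there. No replicate 2 or control peak lay at Tsc2. The nearest replicate 2 peak was 191328 bases from any of its peaks.

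Rptor, at chr11:119464219-119760890 on the plus strand, is the longest of the genes, and 4 of its 10 replicate 1 peaks lay in its last exon's 3′ UTR, the highest at 113-fold. Rictor, at chr15:6658381-6750398 on the plus strand, had 3 coding exon peaks, 1 3′ UTR peak and 1 intron peak, with a highest fold of 61.6, although its mean expression was the lowest of the set. Mlst8, at chr17:24610497-24616023 on the minus strand, had 2 peaks, both in its 3′ UTR and 1 of them also in an exon of 9930021D14Rik, and 4 in the 2 kb past its end, 1 of these in an exon of Pgp.

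Of the 4 remaining genes, Akt1s1, at chr7:52104361-52110788 on the plus strand, had 2 peaks, in coding exons 1 and 2, at 51.3-fold and 71.8-fold. Deptor, at chr15:54943872-55090826 on the plus strand, had 2 coding exon and 2 3′ UTR peaks, the highest at 92.3-fold. Tsc1, at chr2:28496748-28546687 on the plus strand, had a 742-base 3′ UTR peak at 123-fold, 2 coding exon peaks and 1 peak upstream of its start at 54.7-fold. Rps6kb1, at chr11:86312373-86358307 on the minus strand, had peaks in its 5′ UTR at 65.9-fold, in coding exon 3 at 36.8-fold and at 2 places in its 3′ UTR, at 41.0-fold and 48.6-fold.

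**Figure D4:**
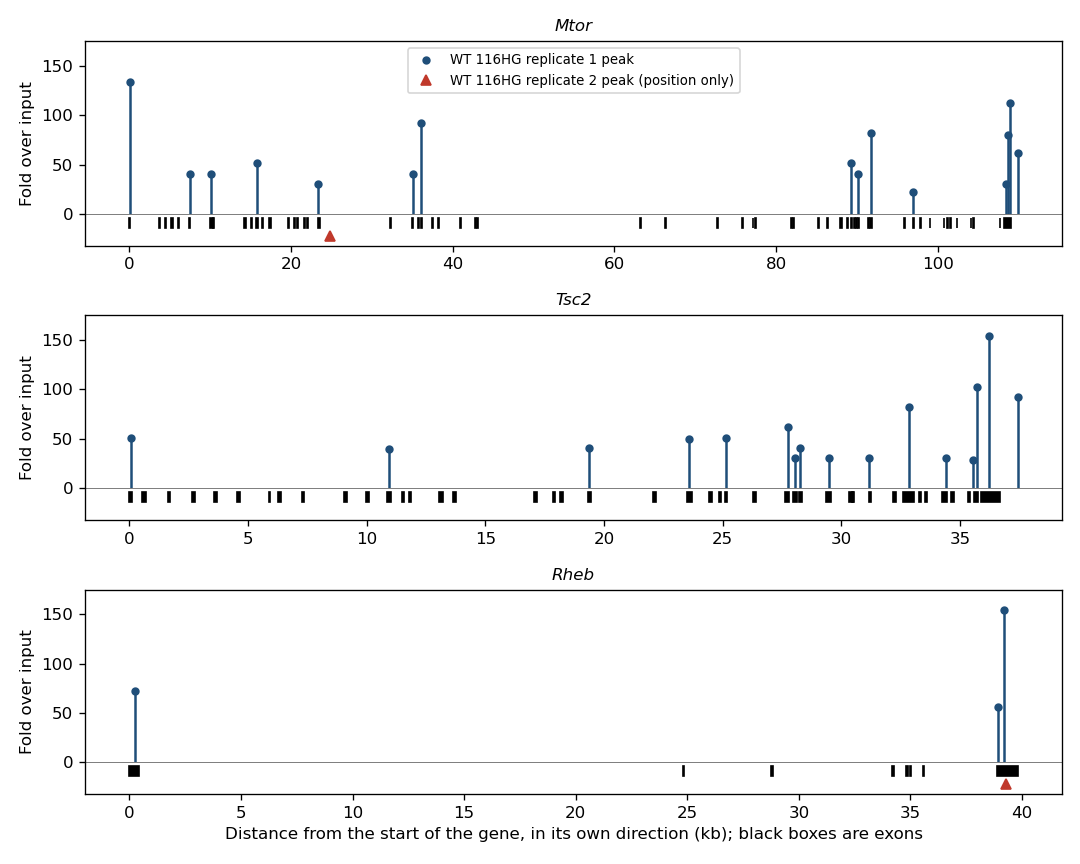
Fold over input (vertical axis) of WT 116HG replicate 1 peaks along Mtor, Tsc2 and Rheb against the distance from the start of each gene in kilobases, with exons as black boxes and WT 116HG replicate 2 peaks, for which the list gives a position only, as triangles. Replicate 1 peaks sit over exons apart from the last peak of Mtor and of Tsc2, just past the gene. The boxes show the main transcript only, and the middle of 1 Tsc2 peak lies in an exon of another transcript. The replicate 2 peak meets a replicate 1 peak at Rheb but not at Mtor.

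Expression and peaks are set side by side without a test. The 2 genes with a replicated peak, Mtor and Rheb, had log2 fold changes of 0.65 and 1.08 at Zt+6. Tsc2 and Mtor, with the most peaks, had changes of 0.68 and 0.65. Rps6kb1, with 4 peaks and none replicated, had a change of 1.04. With every member holding a replicate 1 peak, members with and without one could not be compared.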

How the data were processed

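The genes and gene lists were chosen with earlier results of these data known. The expression file, as deposited, gives 1 FPKM per gene and group, pooled over mice by the authors (TopHat2 2.0.5, Cuffdiff 2.0.2, per the submitters' processing notes). The table's own fold changes and q-values were not used. The authors aligned ChIRP reads to mm9 with Bowtie2 2.0.0 and called peaks with MACS 1.4.2; 4 deposited peak lists give the ratio (fold enrichment) over input, and the WT 116HG replicate 2 list gives positions only. Read depth is not in these files, but the study's methods list it for each library. They give WT 116HG replicate 2 a lower share of aligned reads than replicate 1. Where the methods text and the labels differ on the time of a WT set, groups here follow the labels.

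Changes are log2 of FPKM plus a pseudocount of 1. Named genes are all members, the largest and smallest Zt+6 change in each pathway list, and the 3 genes most like Mtor; the RNA strand setting is not given in the sources used here, so overlapping antisense genes (Tsc2 with Pkd1, Akt1s1 with Tbc1d17, Rps6kb1 with Rnft1) may share reads. Peak positions were matched to GENCODE vM1 on NCBIM37 (mm9), and every peak fell inside its chromosome. Analysis used Python 3.11.15, pandas 2.3.3, scipy 1.17.1 and statsmodels 0.14.6 (lowess, fraction 0.3, for the length trend). The scripts were tested on simulated data. The sequence of 1 peak is not reported here.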

Additional observations from a re-analysis of the deposited data

How the results depend on the processing

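No paired analysis was possible because the table holds 1 pooled value per group, with no replicate columns. The count of members past the size rule at Zt+6 was 6, all higher, where 49.3% of all genes were higher and 7.62% lower. It was 0 with groups at the same median, against 14.8% and 24.2%. At the same upper quartile it was 2, both higher, against 24.3% and 18.5%. At a fold of 2 it was 3, all higher, against 26.7% and 3.05%. With the length trend removed it was 2, both lower, against 12.5% and 13.3%. It was 7 with a pseudocount of 0.1, against 56.1% and 9.22%, and 7 without the filter, against 26.0% and 3.41%. At Zt+16 the count of 1 became 0 at the same median, the same upper quartile, a fold of 2 and with the length trend removed. In that order 1.20%, 0.622%, 1.22% and 0.923% of all genes were higher, and 0.515%, 0.670%, 0.165% and 0.767% lower. Across time in WT the count of 0 became 1 (Mtor, 0.62) with the length trend removed, where 3.42% of all genes were higher and 6.57% lower. Across time in Snord116del the count of 4 became 2 at the same median, where 26.3% of all genes were lower and 34.9% higher. At a fold of 2 it was 2, against 26.1% lower and 16.3% higher. With the length trend removed it was 3, all higher instead of lower, against 24.5% lower and 24.5% higher. The cause of these shifts was not tested.

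Changes whose sign turned at Zt+6 were Mtor, Tsc2, Mlst8, Akt1s1 and Tsc1 at the same median (-0.0699, -0.0698, -0.57, -0.34 and -0.15), Mlst8 and Akt1s1 at the same upper quartile (-0.43 and -0.15) and, with the length trend removed, Mtor at -0.58, Rptor at -0.0893, Mlst8 at -0.62, Deptor at -0.33, Tsc1 at -0.66 and Tsc2 at -0.40. Across time in Snord116del with the length trend removed, Mtor turned to 1.43, Rptor to 0.39, Deptor to 0.35 and Tsc1 to 1.06. At the same median in that comparison, Mtor turned to 0.39, Akt1s1 to 0.03 and Tsc1 to 0.10. The 9 members with a positive genotype change at Zt+16 became 6 at the same median and 1 at the same upper quartile. With the length trend removed they became 4. The difference between the genotype changes at Zt+6 and Zt+16 kept its sign for every member at the same upper quartile. With the length trend removed, that difference turned negative for Mtor (-0.79), Tsc2 (-0.74), Tsc1 (-0.65), Deptor (-0.26) and Rptor (-0.24). It stayed negative for Mlst8 (-0.61) and positive for Rheb (0.25), Akt1s1 (0.18) and Rps6kb1 (0.14).

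The count of members with a replicated peak (2) was 1 for the upper quartile of fold, 1 for direct overlap and 5 within 50 kb. The count with a WT 116HG peak of either replicate (10) ranged from 4 to 10 when 1 replicate was left out, with 4 when it was WT 116HG replicate 1. The share of peaks in exons, 88.4% of the 69 within 2 kb, was 98.4% inside the genes only. Requiring a middle that occurs once in the genome, an alternative chosen after seeing the data, left 10 members with a replicate 1 peak and 3 with a replicate 2 peak. Apart from those with 1 replicate left out, these member counts have no share over all genes at the same setting. They were therefore not set against other genes. With 1 value per group and 1 library per peak list, no difference here has a replicate error.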
